A study of Mus musculus with 12 samples.

Results

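The genes described are 10 genes of lipid droplets and of triglyceride turnover, *Plin2*, *Plin4*, *Plin5*, *Cidea*, *Cideb*, *Cidec*, *Pnpla2*, *Pnpla3*, *G0s2* and *Mogat1*, measured by DNA microarray in the liver of *db/db* mice that were given molecular hydrogen (H2). They were chosen by name, as all array probes whose RefSeq record belongs to one of the genes, which gave 13 of the 39429 probes and 10 of the 20302 gene symbols on the arrays. *Cideb*, *Cidec* and *Pnpla3* had 2 probes each, and the probe with the higher mean signal stands for the gene unless the other is named. Leptin receptor function is absent in *db/db* mice, which grow obese, turn diabetic and develop a fatty liver. All mice of the arrays were *db/db* males of 8 weeks per the labels, treated and control mice alike, and no lean mice are among these samples.

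The study asked how early H2 alters hepatic gene expression. H2 reached the mice by 2 routes. MgH2, a solid that releases H2 in the stomach, was given by gavage once a day for 1, 3 or 7 days at 0.9 mg/kg per the labels, and the control mice of these days received Mg(OH)2, the solid that remains after the release. H2-water with 0.8 mM H2 was drunk for 14 days, and the control mice drank degassed water. Per the study's methods, each group had 9 mice, whose liver RNA was mixed by 3 mice into 3 pools. Each of the 12 dual-color arrays carried a treated pool in Cy5 and a control pool in Cy3, so that there were 3 arrays per group. No array had the dyes swapped, and a dye bias of a probe cannot be told apart from a treatment effect in a single group.

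Hepatocytes store fatty acids as triglyceride in lipid droplets, which carry a coat of perilipins, grow by fusion through the CIDE proteins, and are broken down by lipases that themselves sit on the droplet. In fatty liver several of these genes are highly expressed, and the nuclear receptors PPARalpha and PPARgamma as well as the lipogenic factor SREBP-1c are known to control them. Perilipin 2 coats droplets in nearly all cells, and perilipin 5 is found in tissues that oxidize fat and brings droplets close to mitochondria. Perilipin 4 coats small droplets, mostly in adipocytes. Adipose triglyceride lipase, encoded by *Pnpla2*, releases the first fatty acid from triglyceride, and the small protein G0S2 inhibits it. *Mogat1* encodes an enzyme that makes diglyceride from monoglyceride, a step toward triglyceride synthesis.

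Upstream sequences of 9 of the 10 genes were found in the RefSeq table of promoters for the mouse build GRCm38.p6, and *Cidea* is named only. The 250 bases before the annotated start are shown for *Plin5* and *Pnpla2*, the members that rose most regularly after MgH2, and for *Pnpla3*, whose signal fell below background. Capitals mark matches, on either strand, to the nuclear receptor half-site AGGTCA, the GC box GGGGCGGGG and the cAMP response element TGACGTCA. The *Plin5* stretch lies at chr17:56117549-56117798 on the minus strand, that of *Pnpla2* at chr7:141454938-141455187 on the plus strand, and that of *Pnpla3* at chr15:84167566-84167815 on the plus strand.
Plin5: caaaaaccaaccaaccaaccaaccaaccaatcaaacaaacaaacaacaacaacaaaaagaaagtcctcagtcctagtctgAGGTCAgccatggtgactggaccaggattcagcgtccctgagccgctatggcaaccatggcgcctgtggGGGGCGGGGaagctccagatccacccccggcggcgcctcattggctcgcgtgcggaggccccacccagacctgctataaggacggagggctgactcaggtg
Pnpla2: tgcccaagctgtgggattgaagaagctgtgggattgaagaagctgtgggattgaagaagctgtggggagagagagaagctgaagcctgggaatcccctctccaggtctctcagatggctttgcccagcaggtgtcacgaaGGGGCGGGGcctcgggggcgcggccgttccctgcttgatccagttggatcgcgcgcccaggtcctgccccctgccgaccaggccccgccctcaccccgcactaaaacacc
Pnpla3: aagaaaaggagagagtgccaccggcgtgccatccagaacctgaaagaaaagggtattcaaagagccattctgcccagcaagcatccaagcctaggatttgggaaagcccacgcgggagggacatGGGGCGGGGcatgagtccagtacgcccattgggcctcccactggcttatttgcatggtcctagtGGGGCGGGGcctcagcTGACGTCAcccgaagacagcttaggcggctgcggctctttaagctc
The 9 genes had 11 upstream regions, since *Plin5* and *Cidec* had 2 each, and the *Plin5* region not shown held no match. The GC box was present once upstream of *Plin5* and of *Pnpla2* and at 2 places upstream of *Pnpla3*. These were 3 of the 11 regions, and 10.38% of the 32851 upstream regions of all genes held it. The half-site AGGTCA was found upstream of *Plin5* and *Plin2*, in 2 of the 11 regions, against 14.02% of all regions. The cAMP response element was found upstream of *Pnpla3* alone among the members, against 1.546% of all regions. The sterol regulatory element TCACNNCAC was matched in 1 of the 2 regions of *Cidec*, against 3.114% of all regions. The direct repeat of AGGTCA spaced by 1 base, which PPAR dimers bind, the E-box CACGTG and the forkhead motif GTAAACA were not matched within these letters upstream of any of the 9 genes, and 0.03348%, 6.021% and 3.166% of all regions held them. A match is a run of letters and was not tested as a binding site.

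Values are log2 ratios of the treated over the control pool, positive where the treated pool was higher. A probe was tested where both channels were well above background on all arrays compared. It was called changed at an adjusted P under 0.05 in a limma fit over all 12 arrays with Benjamini-Hochberg adjustment over all tested probes, and each P value rests on the spread between arrays of pools within groups, estimated over all 12 arrays together. Between 51.8% and 56.5% of the spots on an array were well above background in both channels. Over all genes, 9.38% of the tested probes were called after 1 day of MgH2, 23.4% after 3 days, 29.5% after 7 days and 8.83% after 14 days of H2-water. Of the members, 1 of 10 tested was called after 1 day, 5 of 9 after 3 days, 7 of 9 after 7 days and 0 of 9 after 14 days. Of those called, 3 rose and 2 fell after 3 days, where 12.3% of all tested probes were called higher and 11.1% lower, and 3 rose and 4 fell after 7 days, where 15.3% were called higher and 14.2% lower. The median over the tested members was 0.05 after 1 day, −0.33 after 3 days, −0.25 after 7 days and 0.19 after 14 days, while the median over all tested probes lay between −0.00488 and 0.00594. The member medians were not alike on the arrays of a group. On arrays 1, 2 and 3 they were 0.27, −0.09 and −0.14 after 1 day and 0.24, −0.30 and −0.36 after 3 days. After 7 days they were 0.43, −0.43 and −0.43, and after 14 days 0.13, 0.29 and 0.05. Array 1 thus lay above 0 on every MgH2 day.

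**Figure D1:**
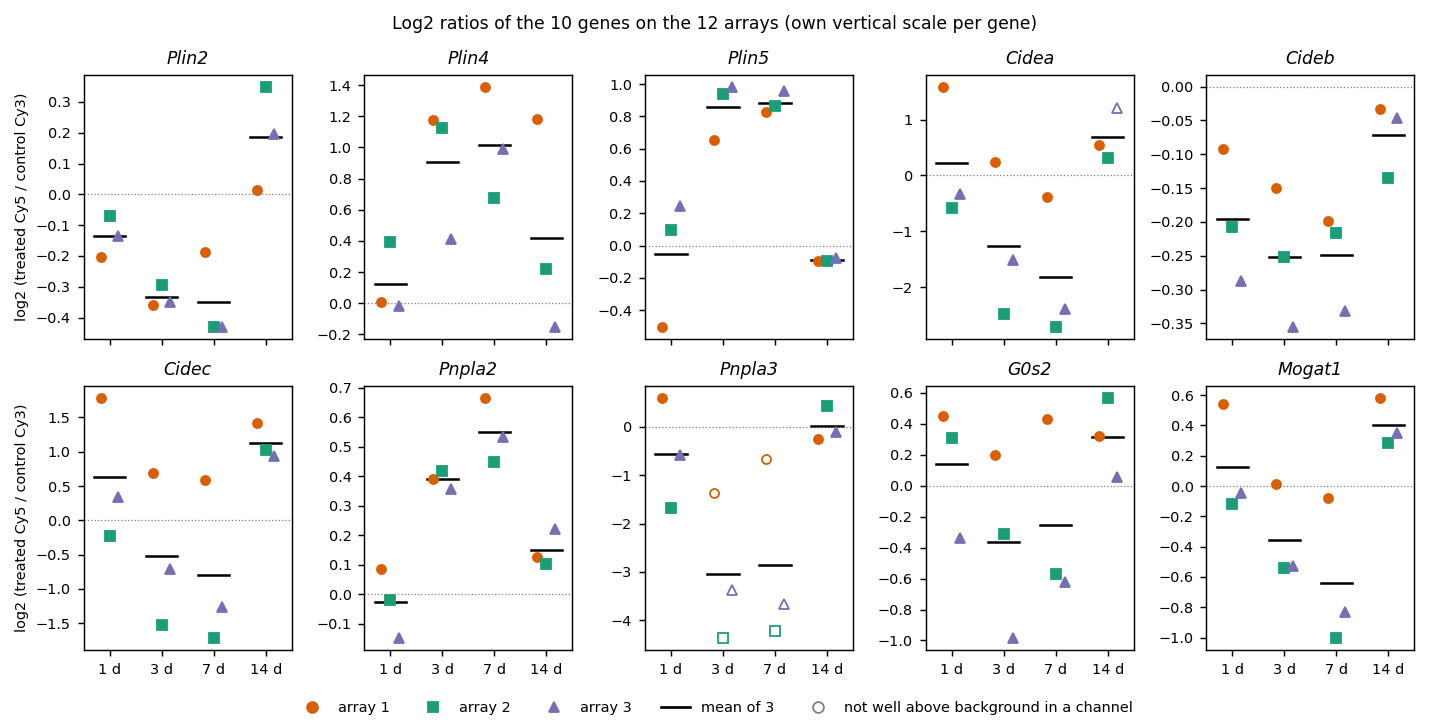
Log2 ratio of treated over control (vertical axes, each with its own scale) of the 10 genes on the 12 arrays, by days of treatment; markers are arrays 1, 2 and 3, the bar is the mean of 3 arrays, and open markers were not well above background in a channel. All 3 arrays of 3 days and of 7 days lie above 0 for *Plin4*, *Plin5* and *Pnpla2* and below 0 for *Plin2* and *Cideb*, whereas array 1 lies far above arrays 2 and 3 for *Cidea*, *Cidec* and *Pnpla3*.

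Among the droplet coat genes, *Plin5* and *Plin4* rose and *Plin2* fell after 3 and 7 days of MgH2. The log2 ratios of *Plin5* were −0.50, 0.10 and 0.25 on arrays 1, 2 and 3 after 1 day, 0.65, 0.94 and 0.98 after 3 days, and 0.83, 0.86 and 0.96 after 7 days. Every array of 3 and 7 days was thus above every array of 1 day. *Plin5* was 1.81-fold higher in the MgH2 pools than in the Mg(OH)2 pools after 3 days (log2 0.86, SE 0.12, limma adjusted P = 0.00113) and 1.84-fold higher after 7 days (log2 0.88, SE 0.12, adjusted P = 0.000653). After 14 days of H2-water the 3 *Plin5* arrays read −0.09, −0.10 and −0.07, a mean that was not called (adjusted P = 0.711).

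*Plin4* read 0.01, 0.39 and −0.02 after 1 day, 1.18, 1.12 and 0.41 after 3 days and 1.39, 0.68 and 0.99 after 7 days. The lowest array of 3 days lay just above the highest of 1 day. *Plin4* was 1.87-fold higher after 3 days (log2 0.90, SE 0.24, limma adjusted P = 0.0219) and 2.02-fold higher after 7 days (log2 1.02, SE 0.24, adjusted P = 0.0103). Both calls depended on single arrays, since the adjusted P after 3 days was 0.110 without the arrays numbered 1 and 0.118 without those numbered 2, and after 7 days 0.0745 without those numbered 1 and 0.0502 without those numbered 3. Under H2-water, array 1 read 1.18 and arrays 2 and 3 read 0.22 and −0.15, and the mean was not called (log2 0.42, adjusted P = 0.327). *Plin4* and *Plin5* are neighbours on the chromosome.

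*Plin2*, the main droplet coat gene of the hepatocyte, was below 0 on all 9 MgH2 arrays. It read −0.20, −0.07 and −0.13 after 1 day, −0.36, −0.30 and −0.35 after 3 days and −0.19, −0.43 and −0.43 after 7 days. The change was small, 1.26-fold lower after 3 days (log2 −0.33, SE 0.06, limma adjusted P = 0.00641) and 1.27-fold lower after 7 days (log2 −0.35, SE 0.06, adjusted P = 0.00352), and that of 1 day was not called (adjusted P = 0.220). On the H2-water arrays *Plin2* read 0.01, 0.35 and 0.20, all above every MgH2 array, with a mean of 0.19 (SE 0.06, adjusted P = 0.112). In bulk liver, fewer cells of a type and less RNA per cell cannot be told apart for this or any later fall.

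The CIDE genes split. *Cideb*, which in hepatocytes also takes part in loading triglyceride onto very-low-density lipoprotein, was below 0 on all 12 arrays, from −0.36 to −0.03. It was the only member called after 1 day of MgH2 (log2 −0.20, SE 0.05, limma adjusted P = 0.0399), where leaving out the arrays of any single number ended the call (adjusted P from 0.0541 to 0.182). The call also ended with each array centred on its median, with normexp and loess, and without the filter on dim probes. It ended too with the group's arrays alone and with control levels averaged over same-numbered arrays. *Cideb* was 1.19-fold lower after both 3 days (log2 −0.25, adjusted P = 0.00724) and 7 days (log2 −0.25, adjusted P = 0.00543). Without the arrays numbered 3 the adjusted P after 3 days was 0.0511. The other *Cideb* probe differed from it by at most 0.14 on any array and was called after 3 days (log2 −0.19, adjusted P = 0.0062) and 7 days (log2 −0.14, adjusted P = 0.0186), but not after 1 day (log2 −0.12, adjusted P = 0.0653). After 14 days of H2-water *Cideb* read −0.03, −0.14 and −0.05 and was not called (adjusted P = 0.435). *Cideb* was below 0 in every group. It was not called between 7 days and 1 day of MgH2 (log2 −0.05, adjusted P = 0.693) or between H2-water and the mean of the MgH2 groups (log2 0.16, adjusted P = 0.146), but with each array centred on its median the latter difference was called (adjusted P = 0.0308).

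*Cidea* and *Cidec* promote droplet fusion and enlargement and are low in lean liver but raised in fatty liver. *Cidea* read 1.59, −0.59 and −0.32 on arrays 1, 2 and 3 after 1 day, 0.24, −2.49 and −1.51 after 3 days and −0.38, −2.71 and −2.38 after 7 days. Arrays 2 and 3 lay far below array 1 on each of the 3 days, and the arrays of different days overlapped. Its mean was called only after 7 days, 3.54-fold lower (log2 −1.82, SE 0.58, limma adjusted P = 0.0396), while that of 3 days was not (log2 −1.25, SE 0.58, adjusted P = 0.149). The call of 7 days ended without the arrays numbered 2 (adjusted P = 0.195) or 3 (0.186), and with normexp and loess the log2 ratio was −0.81 (adjusted P = 0.0540). Under H2-water *Cidea* read 0.55, 0.31 and 1.21, with the control channel of array 3 not well above background, and was therefore not tested there.

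*Cidec* followed the same order of arrays, with 1.78, −0.23 and 0.34 after 1 day, 0.68, −1.53 and −0.71 after 3 days and 0.59, −1.72 and −1.26 after 7 days. Array 1 was above 0 on every day and no mean was called, with a log2 value of 0.63 after 1 day (adjusted P = 0.479), −0.52 after 3 days (adjusted P = 0.50) and −0.79 after 7 days (SE 0.51, adjusted P = 0.268). Under H2-water all 3 arrays of *Cidec* were high, at 1.42, 1.03 and 0.94, the largest mean of any tested member after 14 days (log2 1.13, SE 0.51), but it was not called in the fit over all arrays (limma adjusted P = 0.212). In a fit of the 3 arrays of H2-water alone the adjusted P was 0.0332. The other *Cidec* probe read 0.74, 0.17 and −0.11 on the same arrays (log2 0.26, adjusted P = 0.772), up to 1.05 below the first.

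Of the lipases, *Pnpla2* rose and *Pnpla3* dropped out of detection after MgH2. *Pnpla2*, the adipose triglyceride lipase, read 0.09, −0.02 and −0.15 after 1 day, 0.39, 0.42 and 0.36 after 3 days and 0.67, 0.45 and 0.53 after 7 days. The arrays of 1, 3 and 7 days did not overlap. *Pnpla2* was 1.31-fold higher after 3 days (log2 0.39, SE 0.05, limma adjusted P = 0.00108) and 1.46-fold higher after 7 days (log2 0.55, SE 0.05, adjusted P = 0.000101). Under H2-water it read 0.13, 0.10 and 0.22, above 0 on all 3 arrays, and was not called (log2 0.15, SE 0.05, adjusted P = 0.110).

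*Pnpla3* encodes a droplet-bound relative of the same lipase and is known as a SREBP-1c target that falls on fasting. Its brighter probe was well above background in the MgH2 pool on all 3 arrays of 1 day and on none of the arrays of 3 and 7 days. For the mean signals and bounds that follow, the average intensities were scaled to the same distribution on all arrays. After 3 days the Mg(OH)2 pools measured well above background on all 3 arrays, with a mean log2 signal of 5.35 against 2.31 in the MgH2 pools. For the bound, MgH2 signals were raised to the lowest signal well above background on their array, a mean of 3.67. This puts the control at least 3.22-fold higher. After 7 days the control pool of array 1 was below background too, so that 2 of 3 control pools measured the gene, and the mean log2 signals were 4.91 and 2.06. Without the filter on dim probes the log2 ratio of *Pnpla3* was −3.04 after 3 days (limma adjusted P = 0.0392) and −2.85 after 7 days (adjusted P = 0.0309), with the signals below background taken as measured. The bound compares the dyes without a swap and is open to dye bias. Within Cy5, the 1-day MgH2 pools were at least 2.26-fold higher than those of 3 days and at least 2.01-fold higher than those of 7 days. After 1 day *Pnpla3* read 0.60, −1.69 and −0.58 and was not called (limma adjusted P = 0.671), and under H2-water it read −0.25, 0.43 and −0.11 (adjusted P = 0.991). The dimmer *Pnpla3* probe was well above background in both channels on 0 of 12 arrays.

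*G0s2*, the inhibitor of adipose triglyceride lipase, was not called in any comparison. It read 0.45, 0.31 and −0.34 after 1 day, 0.20, −0.31 and −0.99 after 3 days, 0.43, −0.57 and −0.62 after 7 days and 0.32, 0.57 and 0.05 after 14 days of H2-water. Array 1 was above array 3 in every group, and the means of 3 days (log2 −0.37, limma adjusted P = 0.325) and 7 days (log2 −0.25, adjusted P = 0.484) lay within that spread.

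*Mogat1*, which is low in normal liver and raised in fatty liver, read 0.54, −0.12 and −0.04 after 1 day, 0.01, −0.54 and −0.53 after 3 days and −0.08, −1.01 and −0.83 after 7 days. It was 1.56-fold lower after 7 days (log2 −0.64, SE 0.18, limma adjusted P = 0.0254) and was not called after 3 days (log2 −0.35, adjusted P = 0.191). The call ended without the arrays numbered 2 (adjusted P = 0.154) or 3 (0.139). Under H2-water *Mogat1* read 0.58, 0.29 and 0.35, above 0 on all arrays and above every array of 7 days, with a mean that was not called (log2 0.41, SE 0.18, adjusted P = 0.211).

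The spread between arrays of 1 day was then read in each channel, as log2 processed signal relative to the 75th percentile of its array and channel. For *Cidea*, the Mg(OH)2 pools read −3.04, −3.36 and −3.33 on the arrays numbered 1 of 1, 3 and 7 days, −0.83, −0.98 and −0.88 on those numbered 2, and −1.35, −1.27 and −1.41 on those numbered 3. The control levels thus differed by 2.34 between numbers and by at most 0.32 within one. The MgH2 pools of *Cidea* were close to each other within a day instead, at −1.43, −1.41 and −1.67 after 1 day, −3.12, −3.47 and −2.79 after 3 days and −3.70, −3.60 and −3.81 after 7 days. In this channel *Cidea* was lower after 3 and after 7 days than after 1 day on arrays of every number, and the control pools numbered 1 were as low as the MgH2 pools of 3 days.

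*Cidec* had the same layout. Its control levels averaged −0.28, 1.60 and 1.35 over the arrays numbered 1, 2 and 3, a range of 1.88, and same-numbered arrays differed by at most 0.11. Its MgH2 levels were 1.57, 1.35 and 1.71 after 1 day, 0.36, 0.10 and 0.68 after 3 days and 0.32, −0.16 and 0.02 after 7 days, so that those of 1 day stood above all others. *Mogat1* control levels averaged 0.31, 1.00 and 1.02 per number, while its MgH2 levels were 0.81, 0.86 and 1.00 after 1 day, 0.34, 0.49 and 0.52 after 3 days and 0.26, −0.03 and 0.09 after 7 days. For *Cidea*, *Cidec*, *Pnpla3*, *G0s2* and *Mogat1* the control range within every MgH2 day was wider than any range of the MgH2 pools.

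*Plin5* and *Pnpla2* did not meet this rule, although their ranges overlapped. The control range within a day was 0.27 to 0.33 for *Plin5*, against 0.09 to 0.40 in the MgH2 pools. For *Pnpla2* it was 0.06 to 0.24, against 0.03 to 0.19. The control levels of *Plin5* also went by number, with a range of 0.31 between numbers and at most 0.10 within one. *Plin5* control levels averaged 4.96, 4.65 and 4.67 per number, below the MgH2 levels of 3 days (5.57, 5.58 and 5.66) and of 7 days (5.78, 5.47 and 5.57) and near those of 1 day (4.53, 4.79 and 4.93). *Pnpla2* MgH2 levels were 2.72, 2.73 and 2.70 after 1 day, 3.14, 3.21 and 3.29 after 3 days and 3.44, 3.25 and 3.28 after 7 days, with no overlap between 1 day and the later days. Over 18411 probes, the control levels of same-numbered MgH2 arrays deviated together from their group means, with a median correlation of 0.57 over 9 pairs of arrays, and the treated levels hardly did, with a median of 0.04. The labels do not say whether same-numbered arrays of different days shared a control pool, so the changes of 1, 3 and 7 days may rest on common controls.

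**Figure D2:**
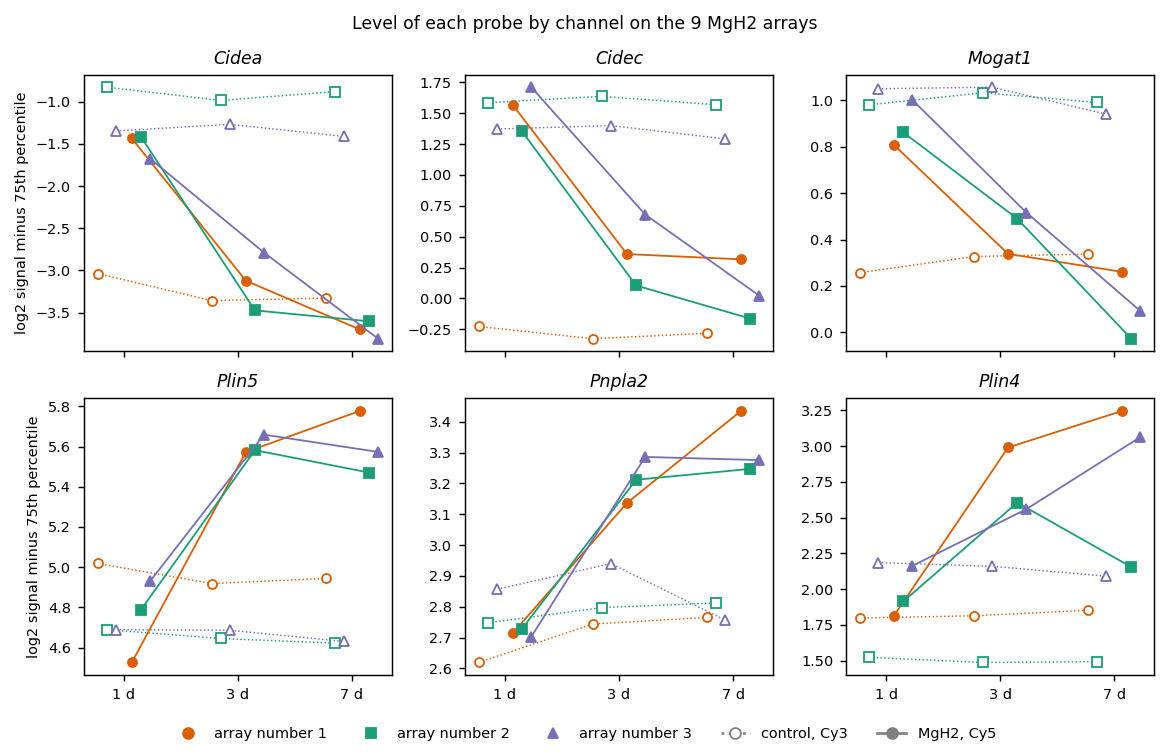
Level of 6 genes in each channel of the 9 MgH2 arrays, as log2 signal relative to the 75th percentile of the array and channel (vertical axes, each with its own scale), by days of treatment; open symbols with dotted lines are the Mg(OH)2 control pools in Cy3 and filled symbols the MgH2 pools in Cy5. The control level of *Cidea* numbered 1 is low on every day, from −3.36 to −3.04, while the MgH2 levels lie between −1.67 and −1.41 after 1 day and between −3.81 and −3.60 after 7 days.

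Differences between days cancel any dye bias that a probe has on all arrays. Between 7 days and 1 day, 6.94% of all tested probes were called, and *Pnpla2* and *Plin5* were called among the 9 members tested. *Pnpla2* was higher by 0.58 (SE 0.07, limma adjusted P = 0.00792) and *Plin5* by 0.94 (SE 0.16, adjusted P = 0.0161). The differences between same-numbered arrays were 0.58, 0.47 and 0.68 for *Pnpla2* and 1.33, 0.76 and 0.71 for *Plin5*, above 0 in 3 of 3 for both. With the arrays of these days alone in the fit neither was called (adjusted P = 0.0516 for *Pnpla2* and 0.0722 for *Plin5*), and without a filter on dim probes *Plin5* was not (0.0643). Without the arrays numbered 3 neither was called (adjusted P = 0.0872 for *Pnpla2* and 0.0959 for *Plin5*), and *Plin5* was not called without those numbered 2 (0.0752).

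*Cidea* differed by −2.05 (SE 0.82, limma adjusted P = 0.154), *Cidec* by −1.42 (SE 0.72, adjusted P = 0.252) and *Mogat1* by −0.77 (SE 0.26, adjusted P = 0.0988) between 7 days and 1 day, and none was called in the fit without a block. With slide as a random block *Mogat1* was called (log2 −0.81, adjusted P = 0.0466) and *Cidea* (0.0743) and *Cidec* (0.135) were not. The correlation within slides was estimated below 0 there, at −0.08, so this call does not show that a slide difference was removed. With the replicate number as a block, 13.4% of all tested probes were called. All 3 genes were called there, at a limma adjusted P of 0.0346 for *Cidea*, 0.0304 for *Cidec* and 0.00913 for *Mogat1*. The block spanned all arrays, so the H2-water arrays, whose numbers were not taken as paired, shared it. These P values are thus not those of a pairing of the MgH2 arrays alone. The same-numbered differences of the 3 genes were close to each other. *Cidea* gave −1.97, −2.12 and −2.06, *Cidec* −1.19, −1.48 and −1.60, and *Mogat1* −0.62, −0.89 and −0.79. In the MgH2 channel alone, an alternative chosen after seeing the control levels, 18.6% of all tested probes were called between 7 days and 1 day, and 6 of the members, with *Cidea* at a log2 difference of −2.20 (adjusted P = 0.00114), *Cidec* at −1.48 (0.00198), *Mogat1* at −0.78 (0.00356) and *Plin4* at 0.86 (0.0392) beside *Plin5* and *Pnpla2*.

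Between 3 days and 1 day, 0.0208% of all tested probes and 0 of 9 members were called, although *Pnpla2* was called with normexp and loess (limma adjusted P = 0.0459) and *Plin5* without the arrays numbered 1 (0.0410). *Plin5* differed by 0.91 (limma adjusted P = 0.0870) and by the same value with the replicate number as a block (adjusted P = 0.0392, where 0.333% of all tested probes were called), and *Pnpla2* by 0.42 (adjusted P = 0.0853, with the block 0.0508). In the MgH2 channel alone, where 3.59% of all tested probes were called, *Plin5*, *Pnpla2*, *Cidea* and *Cidec* were called, with log2 differences of 0.86, 0.50, −1.62 and −1.16. Between 7 and 3 days 0 of 19100 probes and 0 of 9 members were called by limma, against 904 at an unadjusted P under 0.05, and the member nearest to a call was *Pnpla2* (log2 0.16, unadjusted P = 0.0544).

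Days and slides were not independent. A slide, which was also a scan, held the 3 arrays of 14 days, another the 3 arrays of 1 day with array 1 of 3 days, another arrays 2 and 3 of 3 days with arrays 1 and 2 of 7 days, and the last array 3 of 7 days. No slide held both 1 and 7 days. On the slide with both 1 and 3 days, array 1 of 3 days lay 0.71 above the mean of the 3 arrays of 1 day for *Plin5*, 0.42 for *Pnpla2* and 1.05 for *Plin4*, and by 0.01 for *Cidea* and 0.05 for *Cidec*. Against the same-numbered array of that slide it lay −1.36 for *Cidea*, −1.10 for *Cidec*, −0.53 for *Mogat1* and 1.16 for *Plin5*. With slide as a fixed block neither *Pnpla2* (log2 0.59, limma adjusted P = 0.652) nor *Plin5* (log2 0.59, adjusted P = 0.703) was called between 7 days and 1 day, nor was any other probe, and the differences of *Cidea* (0.46) and *Cidec* (0.61) had the opposite sign without being called. With slide and replicate number as fixed blocks together, these differences were −1.76 (SE 0.35, limma adjusted P = 0.449) for *Cidea* and −1.33 (SE 0.19, adjusted P = 0.439) for *Cidec*. On the slide with both 3 and 7 days, array 2 of 7 days minus array 2 of 3 days was −0.22 for *Cidea* and −0.19 for *Cidec*.

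**Figure D3:**
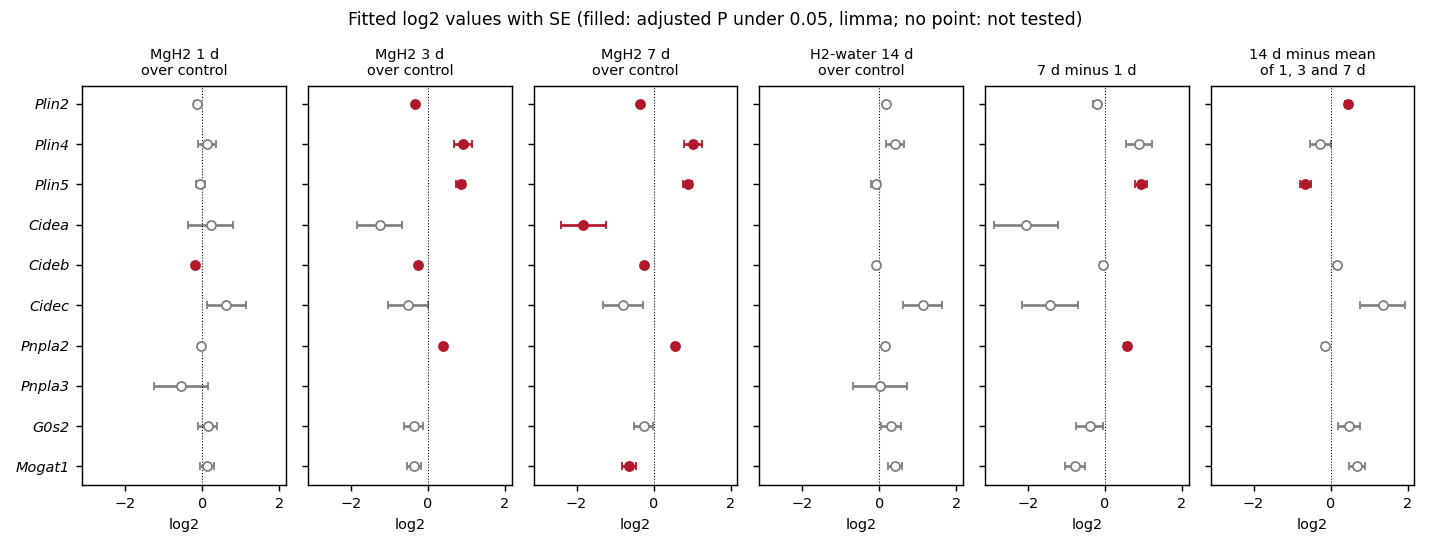
Fitted log2 value with its standard error (horizontal axis) of each gene in 6 comparisons, the 4 groups against their controls, 7 days minus 1 day of MgH2, and H2-water minus the mean of the 3 MgH2 groups; filled symbols have an adjusted P under 0.05. *Pnpla2* and *Plin5* are filled after 3 and 7 days and in the difference of 7 days and 1 day, and no symbol is filled after 14 days.

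H2-water was set against the mean of the 3 MgH2 groups, a difference in which the agent, the days, the mice, the control treatment, the slide and the version of Feature Extraction changed together and cannot be told apart. There 3.25% of all tested probes and 2 of 8 members were called. *Plin2* was 0.46 higher under H2-water (SE 0.07, limma adjusted P = 0.0179), and its 3 H2-water arrays were all above the 9 MgH2 arrays. *Plin5* was lower (log2 −0.65, SE 0.13, adjusted P = 0.0351), where its H2-water arrays fell among those of 1 day and below those of 3 and 7 days. Without the arrays numbered 2 or 3 neither was called (adjusted P = 0.233 and 0.267 for *Plin2*, 0.301 and 0.291 for *Plin5*). *Cidec* (log2 1.36, adjusted P = 0.214) and *Mogat1* (log2 0.70, adjusted P = 0.0930) were higher under H2-water without being called. Each was called in some alternatives, *Mogat1* with each array centred on its median (adjusted P = 0.0278) or slide as a random block (0.0462), and both without the arrays numbered 1 (0.0149 for *Mogat1* and 0.0397 for *Cidec*). In that slide fit the estimated correlation within slides was again −0.08.

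Across the 12 arrays, some members varied together, which is given as a description over arrays that share groups, slides and possibly controls. *Mogat1* and *Cidec* had a Pearson r of 0.96, and *Mogat1* and *Plin5* one of −0.86. Among 11570 genes measured on all arrays, the ratios most like *Mogat1* were those of *Fitm1* (0.99), a droplet formation gene, *Prxl2a* (0.98) and *Cidec*. Those most like *Plin5* were *Lmo4*, *Desi2* and *Cyp39a1* (0.96 each). *Pnpla2* was most like *Stard7*, *Smad4* and *Tamm41* (0.97 each), *Plin2* most like *Elovl5* and *Dbi* (0.94 each) and *Diaph1* (0.93), *Cideb* most like *Tppp* (0.97), *Adi1* (0.96) and *Pm20d1* (0.95), and *Plin4* most like *Pld3* (0.92), *Spata2* (0.91) and *Cabcoco1* (0.88).

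The other genes of droplets and triglyceride turnover were read from lists by role. Of 12 other droplet genes tested, 2 were higher and 2 lower after 3 days of MgH2, and 2 were higher and 3 lower after 7 days. Of all tested probes, 12.3% were called higher and 11.1% lower after 3 days, and 15.3% and 14.2% after 7 days. These shares also stand beside the lists that follow. The droplet counts lay near them, and no list was tested against them. After 7 days *Plin3*, a further perilipin, was lower by a small amount (log2 −0.20, limma adjusted P = 0.0131) and *Fitm1* by more (log2 −0.51, adjusted P = 0.0282). *Hilpda*, another inhibitor of adipose triglyceride lipase, was higher after 3 days (log2 0.27, adjusted P = 0.00579) and 7 days (log2 0.22, adjusted P = 0.0101). *Rab18*, a droplet-bound GTPase, was higher in all 4 groups, by 0.23 to 0.34. It was not called in any difference between groups, and a dye bias of its probe cannot be told apart.

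Of 13 other lipolysis genes tested, none was higher after 3 or 7 days, 4 were lower after 3 days and 6 after 7 days, while *Pnpla2* rose. The lowest was *Pnpla7*, a lysophospholipase of the same family, at −0.57 after 3 days (limma adjusted P = 0.00122) and −0.71 after 7 days (adjusted P = 0.000262). The carboxylesterase *Ces1f* (log2 −0.26, adjusted P = 0.00859 after 7 days) and the lysosomal lipase *Lipa* (log2 −0.26, adjusted P = 0.0196) were also lower. Under H2-water 1 of 13 was called, *Lpl* (log2 0.48, adjusted P = 0.0249). Of 18 triglyceride synthesis genes tested beside *Mogat1*, 2 were higher and 4 lower after 3 days, 5 higher and 4 lower after 7 days, and none was called after 14 days. *Lpin1*, a phosphatidate phosphatase, was higher (log2 0.68, adjusted P = 0.0174 after 7 days) and the acyl-CoA synthetase *Acsl3* lower (log2 −0.67, adjusted P = 0.00151).

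For the pathways known to control the members, 10 of 13 lipogenic genes were lower and none higher after 3 days and after 7 days, with a list median of −0.60 and −0.83. The control pools of this list differed by number. Their median levels were 3.87, 4.54 and 4.45 on arrays 1, 2 and 3 after 3 days and 3.84, 4.50 and 4.36 after 7 days. The MgH2 pools read 3.35, 3.19 and 3.29 after 3 days and 3.13, 3.34 and 2.99 after 7 days. *Fasn*, the fatty acid synthase, was 3.33-fold lower after 3 days (log2 −1.73, SE 0.37, limma adjusted P = 0.00924). Of 15 fasting- and PPARalpha-responsive genes tested, 5 were higher and 0 lower after 3 days, 5 higher and 1 lower after 7 days, and 4 higher and 0 lower after 14 days of H2-water, with list medians of −0.04, −0.05 and 0.24. After 14 days 1006 of all 20429 tested probes were called higher and 797 lower. *Angptl4*, which like *Plin5* and *Plin4* is a PPAR target, was higher after 7 days (log2 0.59, adjusted P = 0.00689).

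**Figure D4:**
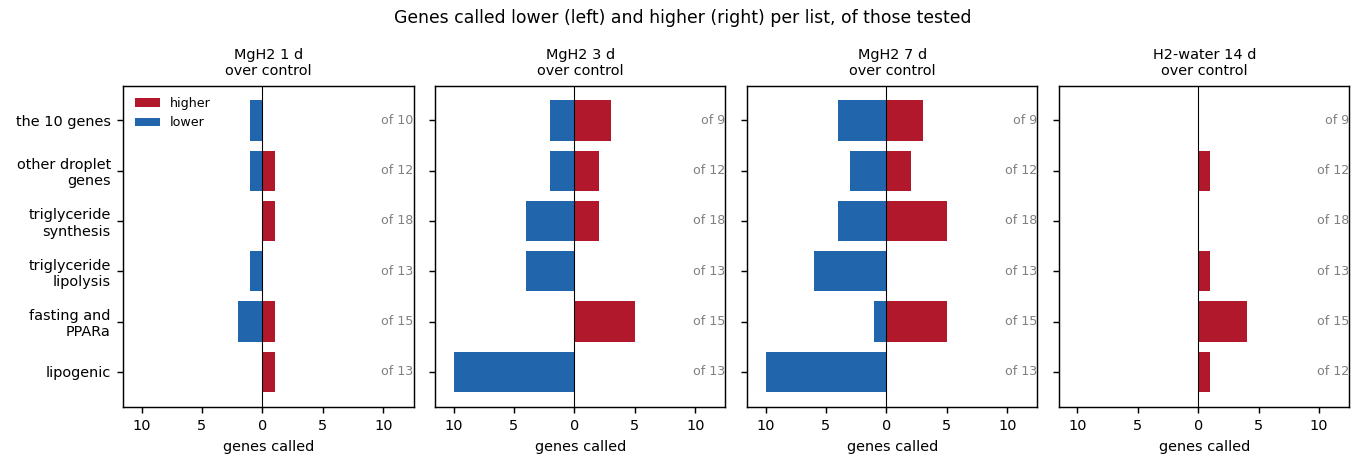
Number of genes called higher (right) and lower (left) in each list, of those tested, in the 4 groups against their controls. The lipogenic list holds 10 lower genes and no higher one after both 3 and 7 days of MgH2, and the members hold 3 higher and 4 lower ones after 7 days.

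The labelled tissue was checked with cell markers. All 9 hepatocyte markers were well above background on every MgH2 array in both channels, and 7 of 9 on all H2-water arrays. No marker failed this on every H2-water array, and a probe with all spots dropped as outliers counted as not above. On H2-water array 1 the median level of the list was 5.71 in Cy3 and 5.63 in Cy5, against 7.86 to 8.08 on arrays 2 and 3. Because *Plin4*, *Cidea* and *Cidec* are also genes of fat tissue, 10 adipocyte markers were read. *Adipoq*, *Lep*, *Plin1* and *Ucp1* were not well above background on any of the 12 arrays in either channel, and at least 5 of the other 6 were well above background on all arrays of each group and channel. *Cfd*, an abundant adipocyte gene, was 5.34-fold lower after 7 days (log2 −2.42, limma adjusted P = 0.0379). No other adipocyte marker was called in any group, and the list median was −0.45 over 6 tested genes after 3 days and −0.10 over 5 after 7 days. The list's summed level, relative to the 75th percentile, was 5.79 to 7.44 in the control pools against 5.19 to 6.58 in the MgH2 pools after 3 days and 5.68 to 7.50 against 4.71 to 5.63 after 7 days. Of 9 Kupffer cell and leukocyte markers, 8 were well above background on all MgH2 arrays, and only *Cd79a* stayed below on all arrays of 3 and 7 days. Their summed level was lower in the MgH2 pools than in the control pools on each day. It was 30.0 to 32.3 against 33.5 to 37.1 after 1 day and 25.2 to 28.3 against 31.9 to 38.0 after 3 days. After 7 days it was 25.0 to 28.6 against 33.1 to 38.4. Of 8 tested markers, 1 was called lower after 1 day, 3 lower and 1 higher after 3 days, and 4 lower after 7 days. The median level over the list was not separated after 7 days, at 0.30 to 0.75 against 0.30 to 0.49 on single arrays. Markers of other cells moved too. Of the stellate cell and fibroblast markers, *Col1a1*, *Col3a1* and *Lrat* were lower after 3 days (3 of 7 tested) and 7 days (3 of 8), by 1.31-fold to 1.46-fold, and their list summed to 28.7 to 34.1 in the MgH2 pools against 33.1 to 39.5 in the control pools after 3 days and 32.7 to 34.3 against 31.5 to 39.0 after 7 days. The endothelial marker *Lyve1* was higher after 3 days (log2 0.58) and 7 days (log2 0.68), and the erythroid gene *Alas2* was 1.47-fold and 1.62-fold lower. Of 6 endothelial markers tested, 2 were called higher after 3 days and 1 after 7 days, with list medians of 0.07 and 0.11. Of 5 blood cell markers tested, 1 was called lower on each of these days, with medians of 0.005 and −0.29. The summed levels of both lists overlapped between MgH2 and control pools. After 7 days 4 of 9 hepatocyte markers were higher and 1 lower, and the list summed to 2951 to 3396 in the MgH2 pools against 2572 to 2890 in the control pools. The part of any of these cells, adipocytes included, in the members' changes was not tested.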

How the data were processed

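RNA of liver pools was measured on 12 dual-color Agilent arrays. The authors processed the scans with Agilent Feature Extraction, version 10.10.1 per the submitters' notes, and 10.7.3.1 for the arrays of 14 days and 10.10.1.1 for those of MgH2 per the file headers. The deposited processed intensity of each spot is background-subtracted and dye-normalized within the array (linear, then lowess), and is not scaled between arrays. The raw median intensity of spots and local background was deposited as well and served for normexp (offset 50) with loess. The deposited log10 ratio of Cy5 over Cy3 comes from the processed intensities, and the log2 ratios of the deposited value table equal it within 1.39e-06. The direction, Cy5 treated and Cy3 control, is that of the methods and labels. The authors' P value of each log ratio was not used, and 0 columns belonged to no sample here.

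Log2 ratios of the processed intensities were used as deposited, and the 75th percentile of non-control spots was subtracted only for levels of 1 channel. The mean signals and bounds of *Pnpla3* alone used processed intensities scaled between arrays (Aquantile in limma). Control spots and spots that Feature Extraction marked as outliers (160 to 244 per array) were dropped. None was saturated. Spots of a probe were averaged. A symbol was found for 26797 probes, for 26781 by their RefSeq record and for the others by a current or former symbol. The methods' normalization by the total of an array leaves its ratios unchanged. Group means and their differences were tested two-sided with limma 3.58.1 in R 4.3.3, all arrays sharing the spread, at an adjusted P under 0.05 (Benjamini-Hochberg). With 3 arrays of pools per group, the number of arrays limits the precision. Tested on simulated data of 18411 probes, the fit recovered 81.5% of probes changed 1.5-fold and 95% of those changed 2-fold in the comparison of 3 days, and 66.5% and 93.5% in that of 7 days against 1 day. The false calls numbered 13 and 14, and 3 and 6. The simulated arrays were independent and held 200 changed probes. Same-numbered arrays here deviated together and far more probes were called, so these rates need not hold for these data.

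Replicate numbers come from the labels. The ratios of same-numbered MgH2 arrays deviated together (r from 0.368 to 0.655 over 9 pairs), so the numbers were taken as pairing those arrays and the block is given where it changes a call. With the arrays of 14 days r ran from −0.041 to 0.287, and those were not taken as paired. The block nonetheless spanned all arrays, those of 14 days included, so it is not a pairing of the MgH2 arrays alone.

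All 10 members are named. Of the other lists, the genes called were eligible, at most 4 of the largest change per list and comparison. For each member called and well above background on all 12 arrays, the 3 genes with the highest r are named. *Cidea*, below background on an array of 14 days, has none. *Fitm1* under *Mogat1* is named by both parts of this rule. The members and the lists were chosen with earlier results of these data known.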

Additional observations from a re-analysis of the deposited data

Results flagged for a closer look

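*Plin5* and *Pnpla2* are listed because their response differed between days of MgH2. *Plin5* was 0.94 higher after 7 days than after 1 day (limma adjusted P = 0.0161), and *Pnpla2* was 0.58 higher (adjusted P = 0.00792), each in 3 of 3 same-numbered pairs of arrays. *Plin2* and *Plin5* are listed because H2-water differed from the mean of the MgH2 groups, by 0.46 for *Plin2* (limma adjusted P = 0.0179) and by −0.65 for *Plin5* (adjusted P = 0.0351).

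In other cases every array of H2-water lay on the opposite side of 0 from every array of an MgH2 group. The mean of *Plin2* under H2-water was 0.32 above that of 1 day, 0.52 above that of 3 days and 0.54 above that of 7 days. *Plin5* differed by −0.95 from 3 days and by −0.97 from 7 days, and *Mogat1* by 1.05 from 7 days. These single differences were not tested. Agent, days, mice and slide changed together between the groups. No array stood out within a group by a test, since groups of 3 are too small for one.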

How the results depend on the processing

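No called value of a member changed sign under any alternative. Over the members, 1022 values kept their side of the threshold, 62 lost a call and 26 gained one. The counts over all probes moved more. After 1 day 1846 probes were called, against 823 with each array centred on its median, 711 without a filter on dim probes, 101 with the group's arrays alone, 3032 with slide as a random block and 422 to 796 without the arrays of a number. The random slide block had an estimated correlation below 0 in every comparison, from −0.084 to −0.067. A gain of calls under it is thus no removal of a slide difference. After 3 days 4542 were called, against 2991 when centred, 2416 without the filter, 292 with the arrays alone and 2111 to 2981 without a number. After 7 days 5747 were called, against 2176 with the arrays alone and 3092 to 4058 without a number. After 14 days 1803 were called, against 502 with the arrays alone and 470 to 569 without a number. The methods' t-test gave 2833, 3877, 5053 and 4126 probes after 1, 3, 7 and 14 days unadjusted, and 64, 1, 161 and 39 after Benjamini-Hochberg adjustment. No member kept a call under the latter.

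Between 3 days and 1 day 4 probes were called, against 1 when centred, 18 with normexp and loess, 0 without the filter, 0 with the arrays alone and 0 to 3 without a number. Between 7 days and 1 day 1330 were called, against 107 without the filter, 184 with the arrays alone, 2553 with slide as a random block and 1 to 153 without a number. Between H2-water and the MgH2 mean 599 were called, against 2026 when centred, 1620 with slide as a random block and 0 to 279 without a number. With the replicate number as a block over all arrays, 64, 2571 and 1644 probes were called in these differences, and 0 between 7 and 3 days as before. Beside the calls of members given above, the block added *Cidec* (limma adjusted P = 0.0241) and *Mogat1* (0.00763) between H2-water and MgH2, whose numbers were not taken as paired.

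Centring shifted the split of higher to lower calls from 1013 and 833 to 330 and 493 after 1 day, from 2973 and 2774 to 969 and 5179 after 7 days, from 1006 and 797 to 1243 and 104 after 14 days, from 624 and 706 to 122 and 954 between 7 days and 1 day, and from 279 and 320 to 1953 and 73 between H2-water and MgH2 (466 and 357 with normexp and loess), as the median of all tested probes moved to −0.10 after 7 days and to 0.11 in the last difference. Dividing each channel by its total changed the split to 710 and 1626 after 1 day, 1761 and 2827 after 3 days, 2370 and 3373 after 7 days and 790 and 1180 after 14 days.

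Alternatives chosen after seeing the data were the MgH2 channel alone, with 703 probes between 3 days and 1 day and 3585 between 7 days and 1 day, slide as a fixed block, with 0 probes in both differences, as also with slide and number as fixed blocks together, and control levels averaged over same-numbered arrays, with 357, 1870 and 3475 probes after 1, 3 and 7 days. With averaged controls *Plin4* (adjusted P = 0.0576) and *Cideb* (0.0910) were not called after 3 days. With the arrays alone no member but *Plin5* was called after 3 days, *Plin2* (limma adjusted P = 0.0530), *Cidea* (0.0834), *Cideb* (0.0566) and *Mogat1* (0.104) lost their calls after 7 days, so that none of the 4 lower members kept one, and 0 members were called between 7 days and 1 day. Without the filter *Plin4* after 3 days (0.0612), *Cidea* after 7 days (0.0555), *Plin5* between 7 days and 1 day (0.0643) and *Plin5* between H2-water and MgH2 (0.0540) lost theirs. The causes of these shifts were not tested beyond the fewer arrays and genes that some alternatives use. Signal over background limits *Pnpla3* and, at 14 days, *Cidea*.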
